A study of Arabidopsis thaliana with 8 samples.

Results

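Cyclins, cyclin-dependent kinases (CDKs) and the proteins that restrain them form the core of the plant cell cycle machinery. The accessibility of chromatin around 41 Arabidopsis genes of this kind was measured here, out of 27432 nuclear protein-coding genes. The genes were taken by locus and family name, not by a measured value, but with earlier results of these data known. They fall into 5 classes. There were 10 D cyclins, 7 A cyclins, 8 B cyclins, 5 CDKs and 11 genes grouped as inhibitors. The last class holds the 7 KIP-RELATED PROTEIN genes (KRP1 to KRP7), SIAMESE (SIM) and SIAMESE-RELATED 1 (SMR1). It also holds the kinase gene WEE1 and the retinoblastoma-related gene RBR1, whose products are not themselves CDK inhibitor proteins of the KRP or SIAMESE kind.

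The compared groups were GFP-positive lateral organ founder cells and GFP-negative neighbouring cells of the same inflorescence apices, with 3 libraries each. Both groups came from plants that carried the DRNL::erGFP reporter and were mutant at AP1 and CAL, the ap1cal background in which flowers are replaced by proliferating inflorescence meristems. The GFP-positive cells are therefore defined by the activity of the DRNL promoter, and each library came from protoplasts of the pooled apices of 700 to 900 plants, sorted for at most 1 h (95000 to 300000 GFP-positive and about 300000 GFP-negative protoplasts). Besides these, 2 control samples of sheared DNA were made from the same tissue and are not analysed here.

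A cyclin activates the CDK to which it binds. D cyclins act with CDKA;1 early in the cycle, where the phosphorylation of RBR1 releases the E2F transcription factors that switch on genes for DNA replication. A and B cyclins act later, in S phase, G2 and mitosis, together with A-type and plant-specific B-type CDKs. KRP and SIAMESE-type proteins bind and inhibit cyclin-CDK complexes, and SIM and SMR1 are known for turning dividing cells of the shoot epidermis to endoreduplication, in which DNA is copied without mitosis.

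ATAC-seq marks open chromatin by the insertion of a transposase, and the authors' lists give the transposase hypersensitive sites (THSs) of each library, in steps of 100 bp. The value given to each gene is the percent of its window, the gene plus 1000 bp on each side, that was covered by THSs. The GFP-positive lists held 24156, 26216 and 25623 sites over 17.4, 19.6 and 17.3 Mb, against 26001, 26310 and 28757 sites over 17.8, 18.3 and 19.4 Mb in the GFP-negative lists. Read depth is unknown, so a site missing from a list may have been missed and is not shown to be closed. In sorted pools, a site open in fewer cells and one less open in every cell cannot be told apart. At DRNL, whose promoter drives the reporter, coverage was 55.7, 59.0 and 66.8% in the GFP-positive libraries, against 39.1, 35.8 and 29.1% in the GFP-negative libraries. Those groups did not overlap, but the difference of 25.8 percentage points did not pass limma with Benjamini-Hochberg adjustment over all genes (adjusted p = 0.0815). The reporter carries a copy of the DRNL promoter, and the lists do not tell sites on that copy from those of the gene itself. The labels do not say that the libraries of a group came from separate sorts beyond calling them biological replicates. The p-values measure the spread between these libraries, which limma estimates partly from other genes. Where the libraries of a group share the same value, the p-value rests on those other genes.

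Coverage was lower in the GFP-positive cells at 2 CDK inhibitor genes, SIM and SMR1, and over the whole window no member was called higher. In the GFP-positive cells SIM and SMR1 had 9.55 ± 2.07% and 4.72 ± 8.17% of their windows in THSs. In the GFP-negative cells they had 53.7 ± 9.48% and 54.3 ± 4.09% (SD, n = 3 each, as for every ± given here). The cyclins and CDKs had no called member in either direction, and the KRP genes had none. A filter for coverage in at least 2 of the 6 libraries left 38 of the 41 genes. Of these, 2 were called lower and 0 higher at an adjusted p under 0.05 in limma, where 1.14% of all 21875 genes tested were called lower, 0.347% higher and 1.49% in either direction. Those 2 lower calls were 5.26% of the members tested. At an unadjusted p under 0.05 there were 3 members (7.89%), all lower, of which the third was a B-type CDK gene described below. Over all genes that share was 10.8% in either direction and 6.94% for lower values, so the members' count was near the background.

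**Figure D1:**
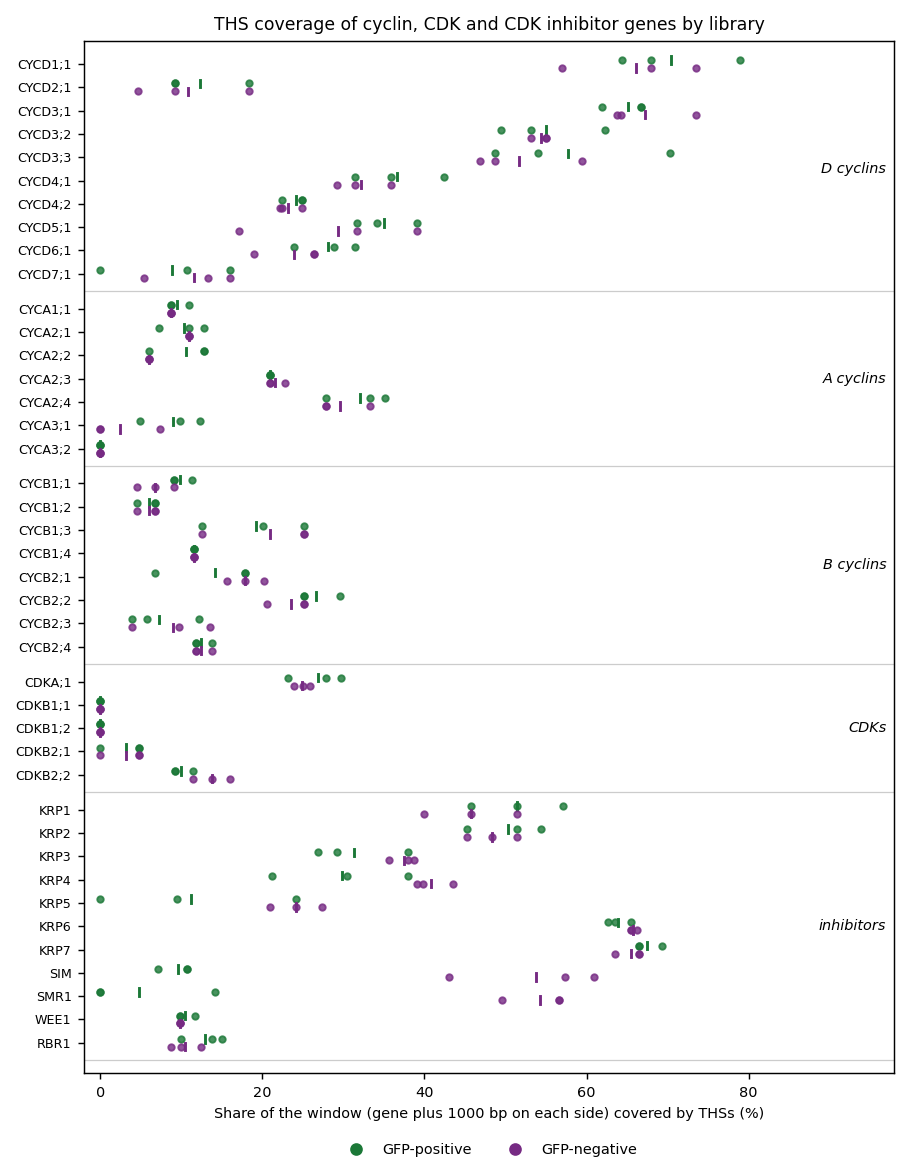
Percent of each gene's window (gene plus 1000 bp on each side) covered by THSs, with 1 point per library, for all 41 genes in their 5 classes. GFP-positive points stand above GFP-negative points in each row, and upright ticks mark the group means. At SIM and SMR1 the points lie far apart, at 0 to 14.2% in the GFP-positive libraries and 43.0 to 60.9% in the GFP-negative libraries.

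Across the members, group means were higher in the GFP-positive cells for 20 genes, lower for 14 and equal for 4, with a median difference of 0.631 percentage points. The median over all genes tested was 0, and that of the members turned to -0.149 points when GFP-positive replicate 2 was left out and to -0.316 when GFP-negative replicate 1 was. Differences stayed under 5 points in 29 members (76.3%), against 78.6% of all genes tested, and under 10 points in 34 members (89.5%), against 93.4%. The groups did not overlap at 3 members, SIM, SMR1 and KRP4, all lower in the GFP-positive cells (7.89% of those tested, against 6.63% of all genes). Groups separated in the other direction were found at 0 members, against 3.61% of all genes (10.2% over both directions). The median member was covered over 20.1% of its window and the median gene over 13.7%.

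**Figure D2:**
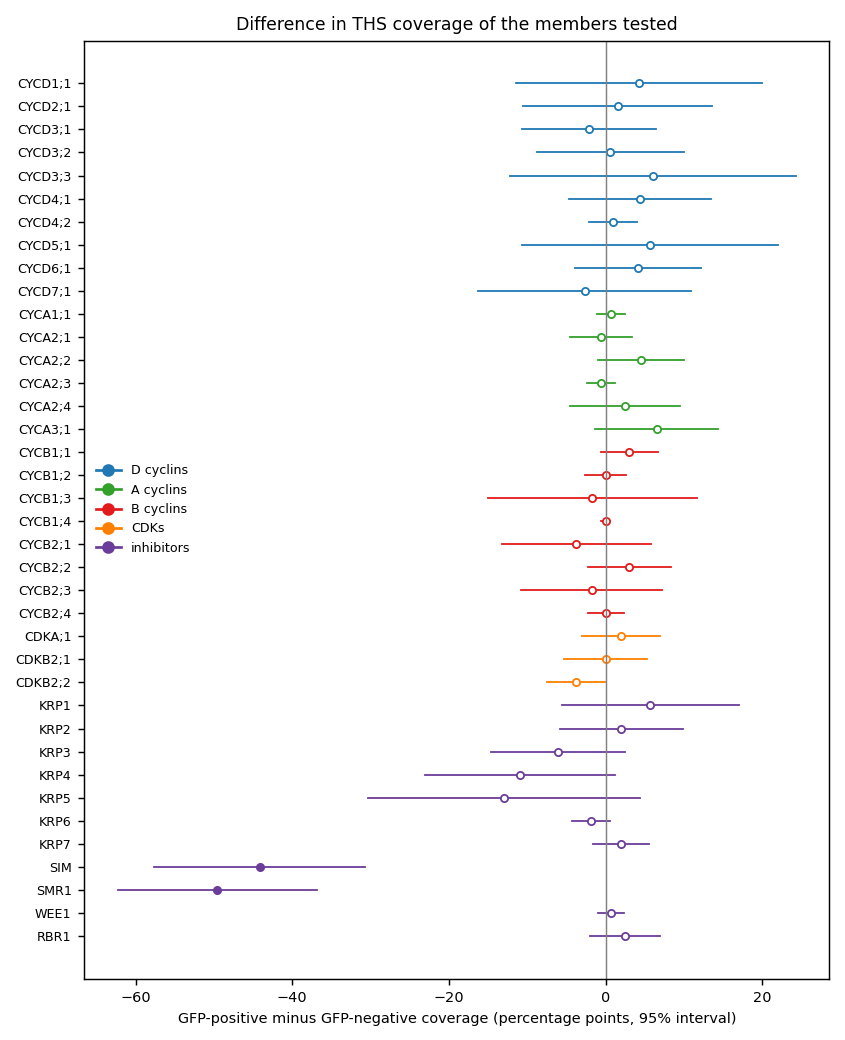
Difference in covered percent of the window, GFP-positive minus GFP-negative, for the 38 members tested, with the 95% confidence interval from limma and filled points where limma's adjusted p was under 0.05. SMR1 at -49.5 and SIM at -44.2 percentage points stand at the low end, and among the other members CDKB2;2 alone has an interval without 0.

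SIM (AT5G04470, chromosome 5) encodes the founding member of the SIAMESE inhibitors, first known from trichomes that divide when it is lost. Its window was covered over 10.7, 7.16 and 10.7% in the GFP-positive libraries, against 57.3, 60.9 and 43.0% in the GFP-negative libraries. Every GFP-positive library lay far below every GFP-negative library. The difference was -44.2 points (SE 5.17, 95% confidence interval -57.7 to -30.7, limma adjusted p = 0.0372), which ranked 8 from the lowest of 21875 genes. The body of the gene, 792 bp long, was covered over 14.6% in each GFP-positive library and over 87.4% in each GFP-negative library. Its flanks were covered over 7.53 ± 2.89% in GFP-positive cells and 40.4 ± 13.2% in GFP-negative cells.

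The SIM sites fell into 3 places, given as positions on TAIR10 counted from 1. A region at chr5:1266201-1267200, which overlaps the gene body, held 0 bp of THS in each GFP-positive library and 900, 1000 and 700 bp in the GFP-negative libraries. A second region, at chr5:1267701-1268100 beyond the gene, held 0 bp in each GFP-positive library and 400, 400 and 300 bp in the GFP-negative libraries. Between them, a site that started at position 1267301 was present in all 6 libraries, 300, 200 and 300 bp wide in GFP-positive cells and 300, 300 and 200 bp wide in GFP-negative cells. The locus was thus not without sites in the founder cells, but held the middle site alone. By the authors' score that site outranked 1.61, 2.89 and 2.26% of the sites of its GFP-positive lists, against 28.5, 19.8 and 17.7% of its GFP-negative lists. The best SIM site of each GFP-negative list outranked 30.5, 31.9 and 30.6% of its list, so the SIM sites were of modest rank there as well.

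SMR1 (AT3G10525, chromosome 3), also called LGO, encodes the related inhibitor known for setting the number of giant endoreduplicated cells in the sepal. Coverage was 0, 14.2 and 0% in the GFP-positive libraries, against 49.5, 56.6 and 56.6% in the GFP-negative libraries. GFP-positive libraries 1 and 3 had no site in the window at all, and the groups did not overlap. The difference was -49.5 points (SE 4.87, 95% confidence interval -62.2 to -36.8, limma adjusted p = 0.0223), which ranked 4 from the lowest of 21875 genes. In the body coverage was 0, 15.9 and 0% in GFP-positive libraries and 39.5, 39.5 and 51.6% in GFP-negative libraries. The flanks had 4.48 ± 7.77% in GFP-positive cells and 58.7 ± 5.00% in GFP-negative cells.

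At SMR1, too, a pair of regions was found in every GFP-negative list and in no GFP-positive list. The one at chr3:3280801-3281600, which overlaps the gene, held 700, 600 and 700 bp of THS in the GFP-negative libraries. The other, at chr3:3282501-3283100 outside the gene, held 300, 600 and 500 bp there. A site at chr3:3282001-3282400 was shared by GFP-positive library 2 and all GFP-negative libraries, and it was the sole THS of the GFP-positive cells in this window. By the authors' score it outranked 3.27% of the sites of the GFP-positive library 2 list. The best SMR1 site of each GFP-negative list outranked 18.4, 31.3 and 27.2% of its list, so the SMR1 sites were of modest rank as well. These 4 regions at SIM and SMR1 were the members' regions found in all libraries of one group and none of the other, and each of the 4 was a GFP-negative one. Windows of 2.13% of all genes met a region of this GFP-negative kind, against 4.88% of the members. Regions found in every GFP-positive list and no GFP-negative list met the windows of 0 members and of 0.383% of all genes.

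**Figure D3:**
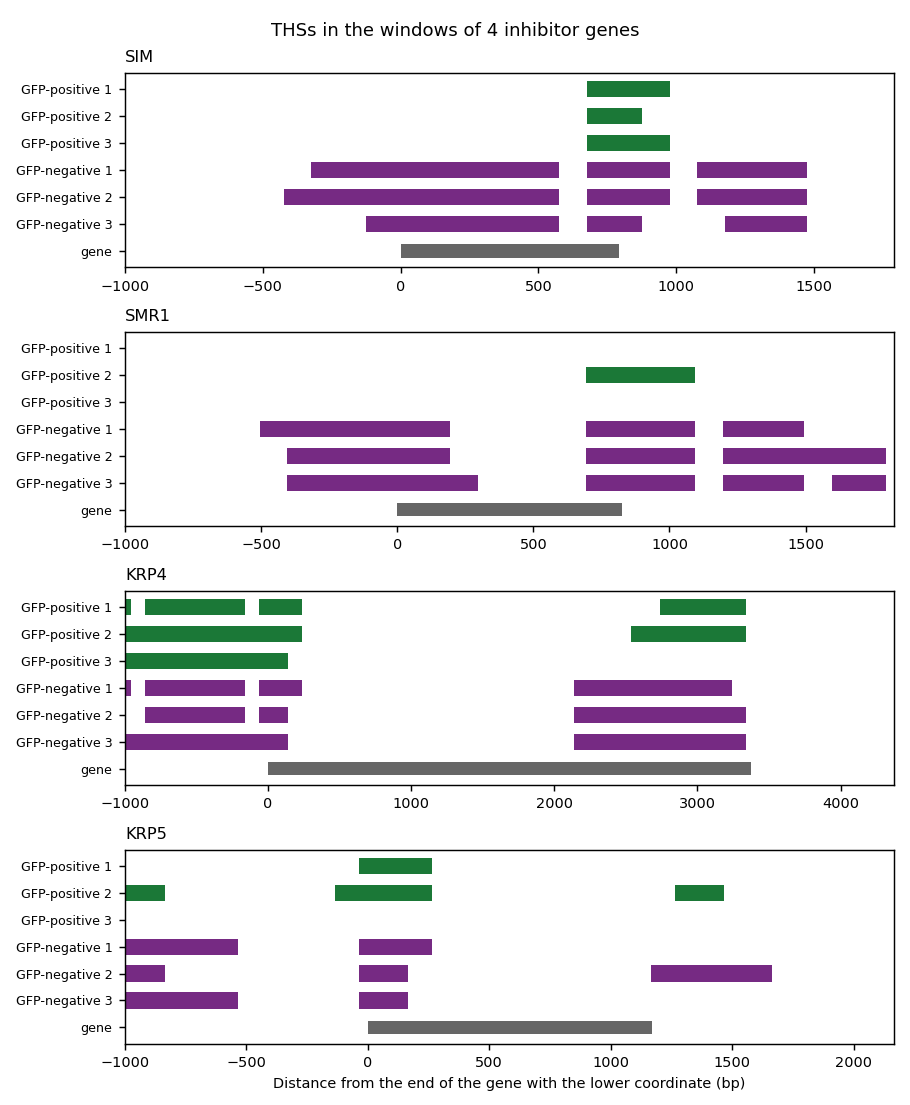
THSs of each library at SIM, SMR1, KRP4 and KRP5, drawn against the distance in bp from the lower-coordinate end of the gene, GFP-positive libraries above GFP-negative libraries, with the gene body as a grey bar. At SIM the GFP-positive rows hold 1 narrow site each, and at SMR1 GFP-positive library 2 alone holds one.

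Both calls were close to the threshold. SIM kept its call when GFP-negative replicate 3 was left out (limma adjusted p = 0.00398) and lost it when any other library was (0.0842 to 0.129). SMR1 kept its call when GFP-positive replicate 2 (0.0118) or GFP-negative replicate 1 (0.0451) was left out and lost it for each of the others (0.0701 to 0.0863), while the differences stayed at -49.5 to -40.6 points for SIM and -54.3 to -47.2 points for SMR1. With the lowest-scoring 25% of each list removed, the differences were -39.4 points for SIM (limma adjusted p = 0.175) and -22.4 points for SMR1 (0.547). Each window also holds all or part of another annotated locus, AT5G04475 at SIM and AT3G10527 at SMR1, so the sites cannot be given to one locus alone.

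The KRP genes, which encode inhibitors related to mammalian p27, had no called member. Among the 7 genes the mean was higher in GFP-positive cells at 3 and lower at 4. KRP4 (AT2G32710, chromosome 2) had 30.5, 37.9 and 21.2% in the GFP-positive libraries, against 39.8, 39.1 and 43.5% in the GFP-negative libraries. The groups did not overlap, with GFP-positive library 3 lowest, but the difference of -10.9 points was within the error (95% confidence interval -23.1 to 1.24, limma adjusted p = 0.517). The gene body had 24.9, 30.8 and 4.12% in GFP-positive libraries and 39.7% in each GFP-negative library. A region there at chr2:13875501-13876700 held 600, 800 and 0 bp of THS in GFP-positive libraries and 1100, 1200 and 1200 bp in GFP-negative libraries. In the flanks of KRP4 the mean was instead higher in GFP-positive cells, at 46.7% against 42.7%.

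KRP5 (AT3G24810) had 9.47, 24.1 and 0% in GFP-positive libraries and 24.1, 27.3 and 21.0% in GFP-negative libraries. Its GFP-positive libraries were the most scattered of the family, and library 2 reached the GFP-negative range. The difference of -12.9 points had a 95% confidence interval of -30.3 to 4.43 (limma adjusted p = 0.537). KRP3 (AT5G48820) averaged 31.4 ± 5.87% in GFP-positive cells and 37.4 ± 1.63% in GFP-negative cells (SD, n = 3 each), a difference of -6.09 points within the error.

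The other KRP genes were covered over much of their windows in both groups. KRP7 (AT1G49620) averaged 67.4 ± 1.69% in GFP-positive cells and 65.5 ± 1.69% in GFP-negative cells. KRP6 (AT3G19150) averaged 63.9 ± 1.42% in GFP-positive cells and 65.7 ± 0.462% in GFP-negative cells. These were the most widely covered inhibitor genes, and their differences of 1.96 and -1.84 points lay within the error. KRP2 (AT3G50630) averaged 50.4 ± 4.64% in GFP-positive cells and 48.3 ± 3.04% in GFP-negative cells. KRP1 (AT2G23430) averaged 51.4 ± 5.71% in GFP-positive cells and 45.7 ± 5.71% in GFP-negative cells, which did not pass the test. Its gene body taken alone had 59.3, 60.0 and 60.0% in GFP-positive libraries and 46.0, 46.7 and 46.7% in GFP-negative libraries, and that difference of 13.3 points did pass (limma adjusted p = 0.000625). It rests on 200 bp that were covered in all GFP-positive libraries and in none of the GFP-negative libraries. Site edges move in steps of 100 bp, and the SD was 0.423 points in both groups. The small p thus rests on nearly identical edges, and the share of all genes called on bodies is not given here.

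RBR1 (AT3G12280), the repressor that D cyclin kinases inactivate, averaged 12.9 ± 2.60% in GFP-positive cells and 10.4 ± 1.91% in GFP-negative cells (difference 2.50 points, limma adjusted p = 0.672). The best site in its window outranked 87.7 to 90.7% of the sites of each of the 6 lists, so a high-scoring site lay there in both groups despite the narrow coverage. That window also meets 2 other protein-coding genes, so the site may belong to a neighbour of RBR1. WEE1 (AT1G02970), whose kinase phosphorylates CDKs after DNA damage, averaged 10.4 ± 1.13% in GFP-positive cells and had 9.78% in every GFP-negative library. The WEE1 difference of 0.652 points lay within the error as well (limma adjusted p = 0.740).

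As a class, the 11 inhibitor genes averaged 30.1, 34.5 and 28.9% in GFP-positive libraries and 40.9, 42.2 and 41.3% in GFP-negative libraries. Every GFP-positive library was below every GFP-negative library. Without SIM and SMR1 the averages were 35.6, 39.8 and 34.2% in GFP-positive libraries and 38.1, 38.5 and 39.4% in GFP-negative libraries, and the groups overlapped. Over the class 5 genes had the higher mean in GFP-positive cells and 6 the lower, with a median difference of -1.84 points.

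**Figure D4:**
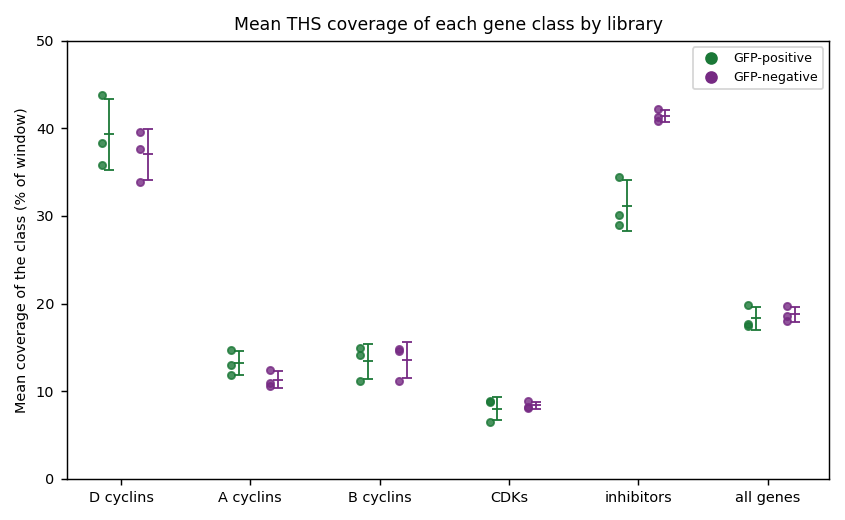
Mean percent of the window covered by THSs over the genes of each class, and over all genes, with 1 point per library and the group mean with its SD beside them, GFP-positive left of GFP-negative. The inhibitor class separates, at 28.9 to 34.5% in GFP-positive libraries and 40.9 to 42.2% in GFP-negative libraries, while the other classes overlap.

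D cyclins, which couple growth signals and cytokinin to entry into the cycle, were among the widely covered genes of the set. The class averaged 38.3, 43.8 and 35.9% in GFP-positive libraries and 33.9, 39.6 and 37.6% in GFP-negative libraries. These ranges overlapped. The mean was higher in GFP-positive cells at 8 of the 10 genes and lower at 2, with a median difference of 2.84 points, but 0 of the 10 passed the test, adjusted or at an unadjusted p under 0.05. The median rested on single libraries, at -0.149 points when GFP-positive replicate 2 was left out, 0.305 for GFP-negative replicate 1, 1.21 for GFP-negative replicate 3 and 5.27 for GFP-negative replicate 2.

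CYCD3;3 (AT3G50070) had 54.1, 70.3 and 48.7% in GFP-positive libraries and 46.9, 59.5 and 48.7% in GFP-negative libraries. Library 2 was highest in both groups, and the groups overlapped (difference 6.01 points, 95% confidence interval -12.2 to 24.2, limma adjusted p = 0.787). CYCD5;1 (AT4G37630) had 31.7, 39.1 and 34.2% in GFP-positive libraries and 17.1, 31.7 and 39.1% in GFP-negative libraries. GFP-negative library 1 was low and the rest overlapped (difference 5.70 points, 95% confidence interval -10.7 to 22.0, limma adjusted p = 0.765).

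CYCD1;1 (AT1G70210) had 68.0, 79.0 and 64.3% in GFP-positive libraries and 57.0, 68.0 and 73.5% in GFP-negative libraries. The groups overlapped and the difference of 4.28 points was within the error (95% confidence interval -11.4 to 20.0, limma adjusted p = 0.828). In its flanks alone each GFP-positive library had 92.8%, against 87.8, 88.1 and 88.1% in the GFP-negative libraries, a difference of 4.77 points that passed limma (adjusted p = 0.000714). That is a change of about one 100 bp step in the 2000 bp of flank. The SD there was 0 points in GFP-positive and 0.202 points in GFP-negative libraries. The window cuts off a region at chr1:26441701-26446400. That region held 4700, 4700 and 4400 bp of THS in GFP-positive libraries and 3600, 3800 and 4300 bp in GFP-negative libraries. Its length was not tested.

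The other members of the CYCD3 group, known for their induction by cytokinin and for prolonging the dividing state, were nearly level. CYCD3;1 (AT4G34160) averaged 65.1 ± 2.79% in GFP-positive cells and 67.2 ± 5.44% in GFP-negative cells. CYCD3;2 (AT5G67260) averaged 55.0 ± 6.60% in GFP-positive cells and 54.3 ± 1.06% in GFP-negative cells. Over the CYCD3 genes together the mean was 59.2 ± 6.32% in GFP-positive cells and 57.7 ± 4.24% in GFP-negative cells.

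CYCD4;1 (AT5G65420) averaged 36.6 ± 5.53% in GFP-positive cells and 32.2 ± 3.36% in GFP-negative cells, and CYCD4;2 (AT5G10440) 24.1 ± 1.42% in GFP-positive cells and 23.2 ± 1.53% in GFP-negative cells. CYCD6;1 (AT4G03270), known from the asymmetric divisions of the root ground tissue, averaged 28.1 ± 3.80% in GFP-positive cells and 23.9 ± 4.31% in GFP-negative cells. Its window held 200 bp that were covered in all GFP-positive libraries and in no GFP-negative library, at the edge of a site outside the gene that was 600 bp wide in each GFP-positive library and 400 bp wide in each GFP-negative library. Bases of that kind were found at 2 members, CYCD6;1 and KRP1 (4.88% of the 41, against 4.07% of all genes). Bases covered in all GFP-negative libraries and no GFP-positive library were found at 3, SIM over 1000 bp, SMR1 over 900 bp and KRP4 over 400 bp (7.32% of the 41, against 6.65% of all genes).

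The D cyclins with the least coverage were CYCD2;1 (AT2G22490), which averaged 12.3 ± 5.28% in GFP-positive cells and 10.8 ± 6.99% in GFP-negative cells, and CYCD7;1 (AT5G02110), known from the guard cell lineage, which averaged 8.89 ± 8.15% in GFP-positive cells and 11.6 ± 5.55% in GFP-negative cells. CYCD7;1 had no THS in its gene body in any library. At neither gene did the difference exceed the spread within a group.

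A cyclins, which act in S phase and G2, had lower coverage than D cyclins in every library. The class averaged 13.0, 14.7 and 11.9% in GFP-positive libraries and 10.6, 10.9 and 12.5% in GFP-negative libraries, with overlap at GFP-negative library 3. Of the 6 genes tested, 4 had the higher mean in GFP-positive cells and 2 the lower, with a median difference of 1.59 points (-0.467 over gene bodies alone and 5.00 over flanks alone). No A cyclin passed the test.

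CYCA3;1 (AT5G43080) had 9.82, 12.3 and 4.91% in GFP-positive libraries and 0, 0 and 7.37% in GFP-negative libraries. A site near the lower end of the gene was listed in all GFP-positive libraries and in GFP-negative library 3, where it was widest, and the groups overlapped through that library. The difference was 6.55 points (95% confidence interval -1.29 to 14.4, limma adjusted p = 0.517).

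CYCA2;2 (AT5G11300), listed as CYC3B in RefSeq, had 12.8, 12.8 and 6.0% in GFP-positive libraries and 6.0% in each GFP-negative library. A region of 400 bp at chr5:3605201-3605600 at the end of the gene was listed in GFP-positive libraries 1 and 2 and in no other library. The difference of 4.57 points did not pass (95% confidence interval -0.915 to 10.1, limma adjusted p = 0.517). Without GFP-positive replicate 3, which lacked that region, it was 6.85 points. The libraries left were identical within each group, so the limma adjusted p of 0.00293 there does not measure a spread between libraries. GFP-positive library 3 had the smallest covered length of the 6 lists, and the part of that in the result was not tested.

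The remaining A cyclins were close to level. CYCA1;1 (AT1G44110) averaged 9.44 ± 1.26% in GFP-positive cells and had 8.72% in each GFP-negative library. CYCA2;1 (AT5G25380) averaged 10.3 ± 2.84% in GFP-positive cells and had 10.9% in each GFP-negative library. CYCA2;3 (AT1G15570), which restrains endoreduplication, had 21.0% in each GFP-positive library and 21.6 ± 1.01% in GFP-negative cells. CYCA2;4 (AT1G80370) had the most coverage of the class, with 32.1 ± 3.81% in GFP-positive cells and 29.6 ± 3.17% in GFP-negative cells. No THS was listed in the window of CYCA3;2 (AT1G47210) in any library, and its nearest site lay 1690 to 3486 bp from the gene.

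B cyclins drive entry into mitosis, and no gene of this class differed between the groups beyond the error. The class averaged 11.2, 14.9 and 14.1% in GFP-positive libraries and 11.2, 14.5 and 14.9% in GFP-negative libraries. Of the 8 genes, 2 had the higher mean in GFP-positive cells, 3 the lower and 3 equal means, and the median difference was 0.

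CYCB2;1 (AT2G17620) had 6.71, 17.9 and 17.9% in GFP-positive libraries and 20.1, 15.7 and 17.9% in GFP-negative libraries. GFP-positive library 1 was low and the other libraries overlapped (difference -3.73 points, 95% confidence interval -13.2 to 5.74, limma adjusted p = 0.740). CYCB2;2 (AT4G35620) had 25.1, 25.1 and 29.6% in GFP-positive libraries and 20.5, 25.1 and 25.1% in GFP-negative libraries. Most libraries shared the same value, so the groups overlapped (difference 3.03 points, 95% confidence interval -2.24 to 8.29, limma adjusted p = 0.662).

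CYCB1;1 (AT4G37490), the widely used marker of G2 and M phase cells, had 9.04, 9.04 and 11.3% in GFP-positive libraries and 4.52, 6.78 and 9.04% in GFP-negative libraries. The groups met at 9.04%, and the difference of 3.01 points did not pass (limma adjusted p = 0.517). At CYCB1;4 (AT2G26760) coverage was 11.6% in all 6 libraries, the same 500 bp in each. CYCB1;2 (AT5G06150) averaged 6.03 ± 1.30% in both groups, and CYCB2;4 (AT1G76310) 12.4 ± 1.13% in both groups. CYCB1;3 (AT3G11520) averaged 19.2 ± 6.31% in GFP-positive cells and 20.9 ± 7.24% in GFP-negative cells. CYCB2;3 (AT1G20610) averaged 7.27 ± 4.33% in GFP-positive cells and 9.03 ± 4.87% in GFP-negative cells.

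The CDK genes were the least covered class, and no CDK gene was called. The class averaged 6.46, 8.82 and 8.72% in GFP-positive libraries and 8.22, 8.03 and 8.87% in GFP-negative libraries. CDKA;1 (AT3G48750), the kinase that acts throughout the cycle, had 23.1, 27.9 and 29.7% in GFP-positive libraries and 25.1, 23.9 and 25.8% in GFP-negative libraries. The GFP-positive values lay on both sides of the GFP-negative ones (difference 1.97 points, 95% confidence interval -3.07 to 7.01, limma adjusted p = 0.740).

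CDKB2;2 (AT1G20930), a B-type kinase gene known for its role in the shoot meristem, had 9.18, 11.5 and 9.18% in GFP-positive libraries and 16.1, 11.5 and 13.8% in GFP-negative libraries. The groups met at 11.5% in library 2 of each. This was the third member with an unadjusted p under 0.05 (0.0454), and it did not pass after adjustment (difference -3.82 points, 95% confidence interval -7.53 to -0.116, limma adjusted p = 0.449). All of its coverage came from 1 region outside the gene, which was 400, 500 and 400 bp wide in GFP-positive libraries and 700, 500 and 600 bp wide in GFP-negative libraries.

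CDKB2;1 (AT1G76540) had 0, 4.74 and 4.74% in the libraries of both groups. No THS was listed within 1000 bp of CDKB1;1 (AT3G54180) or CDKB1;2 (AT2G38620) in any library, and their nearest sites lay 2412 to 2512 bp and 2072 to 2172 bp away. With CYCA3;2 these are the 3 members that could not be tested. A site in all 6 libraries was found at 33 members (80.5%), against 71.5% of all genes. Flanks were covered more than bodies, with the flank mean above the body mean at 33 of the 41 genes in GFP-positive cells and at 35 in GFP-negative cells. The same held over all genes. Their median was 20.1% for flanks and 4.71% for bodies in GFP-positive cells, and 21.1% and 5.13% in GFP-negative cells.

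**Figure D5:**
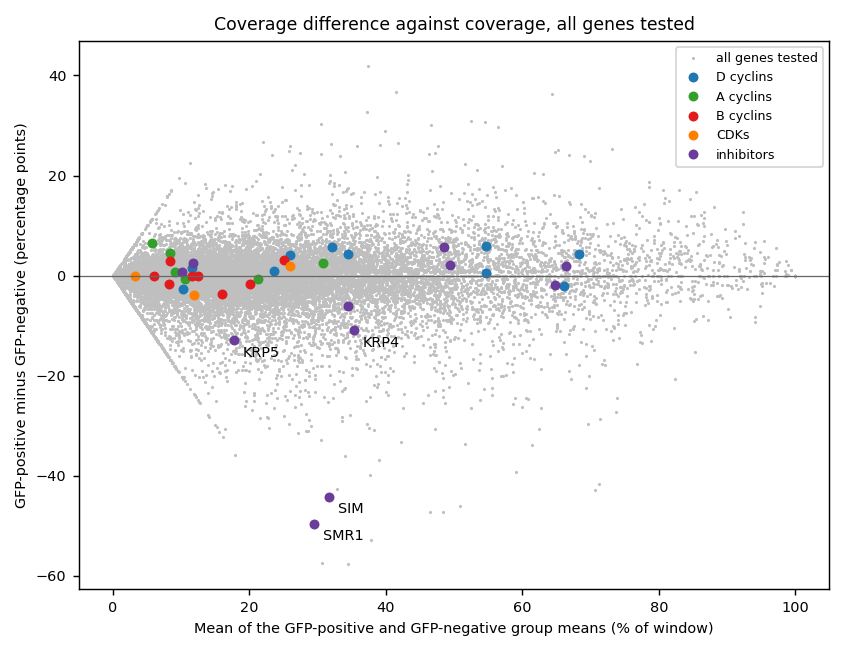
Difference in covered percent of the window, GFP-positive minus GFP-negative, against the mean of both group means, for all 21875 genes tested, with the members coloured by class. SIM and SMR1 lie near the lower edge of all genes, at -44.2 and -49.5 points, and the next lowest members are KRP5 at -12.9 and KRP4 at -10.9 points.

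The authors' deposited table has columns of genes headed dTHS-down and dTHS-up and columns of genes with a THS in each cell type. In the authors' deposited table, dTHS-down holds 1 member, KRP4, and dTHS-up holds 1 member, CYCD1;1, where these columns hold 1.36% and 0.412% of all genes. SIM and SMR1 are in neither of these columns of the authors' deposited table. No source used here tells how those columns were made or which group their direction refers to. Among genes with a THS in GFP-positive cells the authors' deposited table names 40 members (97.6%, against 89.1% of all genes), all but CYCA3;2. Among genes with a THS in GFP-negative cells the authors' deposited table names 36 (87.8%, against 72.3% of all genes), so the first column is the longer one over all genes as well. The 5 members that the GFP-negative column leaves out are both CYCA3 genes, both CDKB1 genes and CDKB2;1. Both CDKB1 genes are in the GFP-positive column although no library listed a THS within 1000 bp of them. CDKB2;1 is in it too, with the same coverage in both groups. These columns thus do not follow the windows and site lists used here, and a gene's place in 1 of them alone is not a difference in coverage.

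By site, 80 regions merged over the 6 lists lay in the members' windows. Of these, 52 (65.0%) were present in all 6 libraries, against 70.1% of all 26792 regions. Those in all 3 GFP-positive libraries and no GFP-negative library numbered 0 (against 0.418%), and those in all 3 GFP-negative libraries and no GFP-positive library numbered 4 (5.00%, against 2.10%). The remaining 24 were present in other combinations of libraries. In 29 of the 41 windows another protein-coding gene also lay, so a site there may belong to a neighbour.

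A list of 32 further cell cycle genes, covering E2F and DP factors, MYB3R factors, activators of the anaphase-promoting complex, CDK partners and activating kinases, and replication factors, had 0 genes that passed limma and 2 at an unadjusted p under 0.05, a share below the 10.8% of all genes. Their means were higher in GFP-positive cells at 15, lower at 12 and equal at 5, with a median difference of 0. The groups did not overlap at 2 of them (6.25%, against 10.2% of all genes). CDKD;2 (AT1G66750), which encodes a CDK-activating kinase, had 16.02, 20.2 and 22.4% in GFP-positive libraries and 11.8% in each GFP-negative library (difference 7.74 points, limma adjusted p = 0.188). A region at chr1:24897501-24897900 beyond that gene was listed in all GFP-positive libraries and in no GFP-negative library. MCM7 (AT4G02060), a subunit of the replicative helicase, had 21.6, 23.0 and 18.7% in GFP-positive libraries and 24.4, 25.9 and 25.9% in GFP-negative libraries (difference -4.31 points, limma adjusted p = 0.326).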

How the data were processed

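The files used hold ATAC-seq site lists of 6 libraries, grouped by their titles, and a gene table. The submitters' processing notes name SICER, bedtools 2.17.0, Picard 1.105, SAMtools 0.1.19, BWA 0.7 and the TAIR10 build. The sources used here do not give the roles of these tools, thresholds, any transposase shift or read depth. In the deposited lists each THS has a position and a score, the authors' own value on an unstated scale, used here only to rank sites within a list. The authors' deposited table holds gene identifiers only. All 76 loci looked up matched RefSeq's gene table (TAIR10.1), from which gene extents were taken.

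Covered percents of gene windows were compared with limma 3.58.1 in R 4.3.3 (trend, no block), for 21875 genes with coverage in at least 2 libraries, with Benjamini-Hochberg adjustment and a threshold of 0.05. The code was tested on simulated data. With 3 libraries against 3, an exact two-sided permutation test of a single value cannot go below 0.1, so none is given. Number and length of sites stand in for depth, and no counting interval can be given. Library values are printed for members that passed limma, whose groups did not overlap, with a site region of 1 group only, in the dTHS-down or dTHS-up column of the deposited table, or among the 2 largest differences of their class; those of KRP5, CYCB1;1 and CDKB2;1, and parts of windows, were added after values were seen. The members and the list of 32 related genes were chosen with earlier results of these data known. Alternatives were other windows, site thresholds, scalings, filters, variance models, the replicate number as a block and leaving out each library. A planned look at promoter sequence and motifs was not run, as strand and sequence were not used here.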

Additional observations from a re-analysis of the deposited data

How the results depend on the processing

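SIM and SMR1 were lower in GFP-positive cells under every alternative fitted, by -72.7 to -26.4 points for SIM (17 alternatives, 8 with an adjusted p under 0.05 in limma) and -54.3 to -22.4 points for SMR1 (16 alternatives, 8 under 0.05). SIM was at -32.9 points with flanks alone (adjusted p = 0.202), -39.4 without the lowest-scoring 25% of sites (0.175), and -44.2 both with coverage required in all 6 libraries (0.0538) and with the replicate block (0.218). SMR1 was at -38.2 with the gene body alone (0.131), -35.7 with flanks of 2000 bp (0.0756), -22.4 without that 25% (0.547) and -49.5 with the replicate block (0.154), and could not be fitted under the filter for all 6 libraries. Leaving out 1 library gave -49.5 to -40.6 for SIM and -54.3 to -47.2 for SMR1. The cause of these changes was not tested.

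Members called lower numbered 2 as reported, 1 with body alone, flanks alone or 2000 bp flanks, 0 without the lowest 25%, with all 6 libraries required or with the replicate block, and 0 to 1 without 1 library. Members called higher numbered 0 as reported, 1 with body alone (KRP1) and with flanks alone (CYCD1;1), and 0 to 1 without 1 library. With flanks alone, 125 of all 21510 genes tested were called higher. For body alone, 2000 bp flanks and lower calls with flanks alone, no count over all genes is given here. The single members called there are thus given without a background and are not read as a result about the members. Members with separate groups and higher values numbered 1 with body alone, flanks alone or scaling to the covered length, 2 with 2000 bp flanks and 0 to 3 without 1 library; those lower numbered 1 without the lowest 25% and 3 to 6 without 1 library. Over all genes, the share with separate groups and higher values was 2.12% with body alone, 3.25% with flanks alone, 9.61% with scaling, 4.07% with 2000 bp flanks and 4.7 to 8.84% without 1 library, and that with lower values 5.85% without the lowest 25% and 7.9 to 13.2% without 1 library. The median difference of A cyclins was -0.467 with body alone and 5.00 with flanks alone, that of CDKs -1.58 to 1.58 without 1 library, and that of inhibitors -4.74 with 2000 bp flanks. Over all genes, 76 were higher as reported, 125 with flanks alone, 187 with equal numbers of top sites, 119 without the lowest 25%, 43 with all 6 libraries required, 1 with the replicate block and 84 to 208 without 1 library. Lower genes numbered 249 as reported, 111 with all 6 libraries required, 29 with the replicate block and 141 to 443 without 1 library.

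Same-numbered libraries of the groups deviated together only weakly (correlations 0.161, 0.0665 and 0.0387), so the numbers were not taken to pair them. Of 635 alternative values of members, 29 changed sign, at 17 of the 38 members, none of them with a difference above 1 SE in both fits. With 50% of a region's length required for presence, 44 regions at members were in all 6 libraries and those in each GFP-negative library and none of the GFP-positive ones still numbered 4. Unknown depth limits every absence of a site.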
